A study of Mus musculus with 10 samples.

Results

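The genes described here encode heat shock proteins and chaperones that keep the proteins of skeletal muscle folded. They are the small heat shock proteins Hspb1, Hspb6, Hspb7, Hspb8 and Cryab, the Hsp70 chaperone Hspa1b with its partners Hsph1 and Dnajb1, the cytosolic Hsp90 chaperone Hsp90aa1, and the mitochondrial chaperonin Hspd1. Members were chosen by name, as probe sets whose single gene symbol in the platform annotation was one of these 10, taking the probe set with the highest mean where a gene had several. Of 10 listed genes, 9 had such a probe set, out of 19938 genes with one in all, and all 9 passed the filter on low values that left 11963 genes. Hspa1b was not among them, because its probe set names both Hspa1a and Hspa1b, a near-identical pair of genes.

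The series measured RNA of gastrocnemius, the large calf muscle, from male C57BL/6 mice on 10 Affymetrix arrays, each hybridised with RNA pooled from 5 animals. The F0 EX pool (1 array) came from animals of 28 weeks with voluntary exercise, and the F0 SED pool (1 array) from sedentary animals of the same age. F1 EX and F1 SED (2 pools each) were sons of like-exposed F0 pairs, and F2 EX and F2 SED (2 pools each) came from F1 littermate matings. All F1 and F2 animals were sedentary and 8 weeks old, so EX and SED name their ancestry. Because a pool gives 1 value for 5 animals, the spread between animals cannot be seen, and with 1 pool a group the F0 animals have no replicate. Values are log2 probe set signals as the authors deposited them, and every difference below is on that log2 scale.

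Heat shock proteins are made by all cells and rise when proteins unfold, as in heat, oxidative stress or hard muscular work. Small heat shock proteins hold unfolding proteins in a soluble state, Hsp70 refolds them with the help of J-domain proteins and exchange factors, and Hsp90 finishes selected clients, among them muscle myosin. Chaperonins enclose a client in a chamber, and Hspd1 does this in the mitochondrial matrix with its lid Hspe1. Many of these genes are switched on by heat shock factor 1, which binds inverted repeats of the letters GAA, the heat shock element, in their promoters.

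Promoter windows are printed for 4 members to show where such letters lie in genes with a difference between the F0 pools (Hsph1 and Hspb7), in a gene whose probe sets disagree there (Hspd1) and in a gene with little difference (Hspb1). The Hspd1 window is that of its gene on chromosome 1, and only the probe set with neighbours elsewhere had the higher F0 EX signal. Each is the 250 bases before a transcription start in RefSeq, build GRCm38.p6, written 5' to 3' on the strand of the gene, and capitals mark the 8 letters of GAANNTTC or TTCNNGAA. Of the 10 listed genes, 8 matched the promoter table. Cryab and Hsp90aa1 are named only.
Hspd1, chr1:55087933-55088182, minus strand: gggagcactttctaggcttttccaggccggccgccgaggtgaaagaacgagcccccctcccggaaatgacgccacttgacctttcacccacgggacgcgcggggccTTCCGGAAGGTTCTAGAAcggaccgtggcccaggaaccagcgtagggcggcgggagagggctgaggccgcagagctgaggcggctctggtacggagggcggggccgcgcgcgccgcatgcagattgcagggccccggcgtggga
Hsph1, chr5:149636337-149636586, minus strand: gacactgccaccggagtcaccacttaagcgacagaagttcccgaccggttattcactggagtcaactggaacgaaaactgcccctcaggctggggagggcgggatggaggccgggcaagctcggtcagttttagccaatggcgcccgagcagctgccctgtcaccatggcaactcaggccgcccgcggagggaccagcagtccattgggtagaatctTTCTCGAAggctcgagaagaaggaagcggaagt
Hspb1, chr5:135887669-135887918, plus strand: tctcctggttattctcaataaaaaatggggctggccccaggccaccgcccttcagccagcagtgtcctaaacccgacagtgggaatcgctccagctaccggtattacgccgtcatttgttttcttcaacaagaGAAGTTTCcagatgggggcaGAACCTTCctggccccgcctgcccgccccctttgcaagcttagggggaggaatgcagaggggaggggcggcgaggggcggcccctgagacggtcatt
Hspb7, chr4:141420529-141420778, plus strand: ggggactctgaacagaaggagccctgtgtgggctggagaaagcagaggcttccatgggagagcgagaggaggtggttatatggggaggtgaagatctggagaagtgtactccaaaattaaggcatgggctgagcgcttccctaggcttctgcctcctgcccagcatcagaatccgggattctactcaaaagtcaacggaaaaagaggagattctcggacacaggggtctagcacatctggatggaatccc
At least 1 of GAANNTTC and TTCNNGAA lay before a start of 5 of these 8 genes, namely Hspb1, Hspb6, Hspa1b, Hsph1 and Hspd1. Of all 27025 genes with a listed window 14.5% had one, and of the 32851 windows 12.8%. Both motifs read the same on either strand. The Hspd1 window printed above, one of 2 for that gene, held 3 matches that overlap. They join into forms of 3 units (GAANNTTC followed by NNGAA, and TTCNNGAA followed by NNTTC), and 0.466% of all windows held either form. Hspb7, Hspb8 and Dnajb1 had no match to these letters in their windows.

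The pools were muscle by their markers, and a pair of arrays stood apart. Ckm, Acta1, Tnnt3, Actn3, Pvalb, Tnnc2, Mylpf and Des, genes of the muscle fibre, had signals between 11.31 and 13.54 on all arrays. Across the 11963 kept genes the median Pearson r with the other arrays was 0.974 for F0 SED and 0.979 for F1 EX pool 1, against 0.986 to 0.993 for the rest. Keratinocyte markers (3 of 4 kept) had a mean deviation from their own means of 0.70 in the F0 EX array, 1.52 in the F0 SED array and -0.41 to 0.14 in descendants. In the F0 EX pool Krt10 had 4.91 and Krt5 had 4.55, against 6.14 and 5.73 in the F0 SED pool. The other kept marker, Krt14, was nearly equal in these pools, with a difference of -0.05 (F0 EX minus F0 SED).

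Between exercised and sedentary F0 animals Hsp90aa1 and Hsph1 had higher signals in the F0 EX pool, and Hspb7 had a lower one. The mitochondrial Hsp60 gene Hspd1 was higher by its chosen probe set and lower by its other one. By a size of 0.5 or more, 3 of 9 members were higher in the exercised pool and 1 was lower, and their median difference was 0.24. Among all kept genes 15.3% were higher and 5.38% lower by as much, with a median of 0.08. Of the 7975 genes above the 60th percentile of signal, which leave out Dnajb1, 20.2% were higher and the median was 0.15. There the members' median was 0.35, with 3 higher and 1 lower. With probe sets of the genes' own loci the members' median was 0.02, below that of all genes, and 2 of 9 were higher. It was 0.09 after quantile normalization, 0.39 with centring on all probe sets and 0.12 with centring on kept genes. With 1 pool against 1 there is no replicate check of any of these differences. F0 EX was the highest of all 10 arrays for 5 of 9 members (Hspb8, Cryab, Hsp90aa1, Hsph1 and Hspd1), against 18.5% of kept genes. F0 SED was the lowest for 2 of 9 (Hsp90aa1 and Hspd1), against 27.2%. Hspd1 enters both counts only by its chosen probe set. By the other one F0 EX had 8.59, below F0 SED at 8.84.

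**Figure D1:**
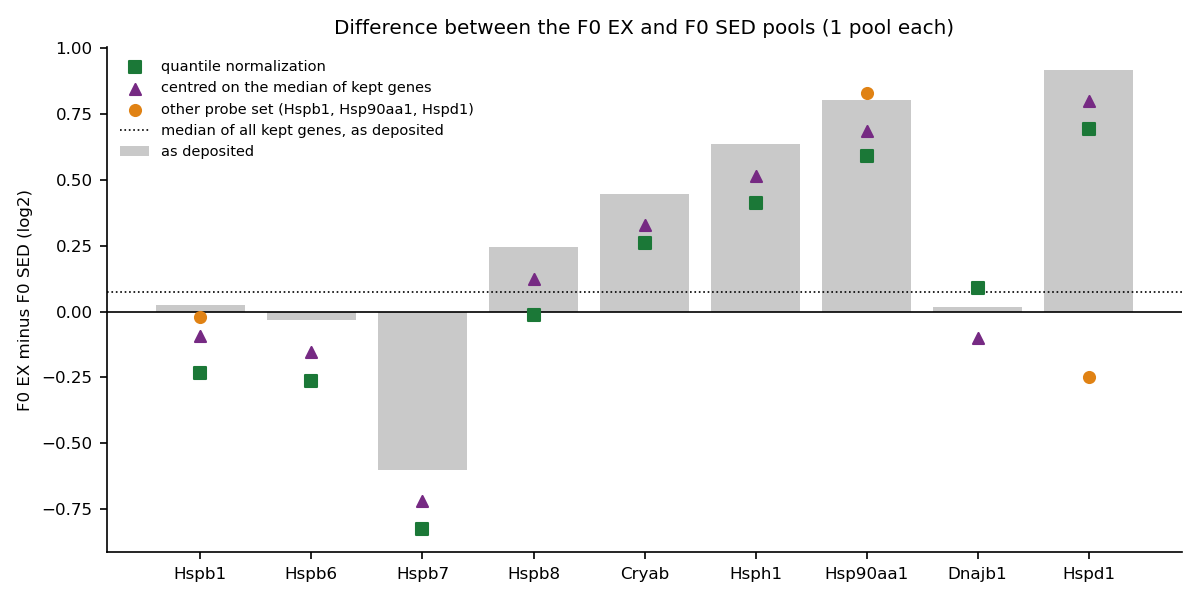
Difference in log2 probe set signal between the F0 EX and the F0 SED pool (vertical axis) for 9 members (horizontal axis), with 1 pool each and hence no error bars. Bars are values as deposited, symbols show other scalings or another probe set of the gene, and the dotted line is the median of all kept genes. Hspd1, Hsp90aa1 and Hsph1 lie at 0.92, 0.80 and 0.64, Hspb7 lies at -0.60, and the other Hspd1 probe set lies at -0.25.

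Hsp90aa1, the heat-inducible cytosolic Hsp90, had a signal of 8.22 in the F0 EX pool and 7.42 in the F0 SED pool, a 1.75-fold difference. The descendant pools, between 7.70 and 7.94, lay below the F0 EX pool and above the F0 SED pool. The gene has 3 probe sets, and the other ones differed by 0.83 and 0.59 in the same direction. Hsph1, an Hsp110 protein that exchanges nucleotide on Hsp70, had 8.46 in F0 EX and 7.83 in F0 SED, a 1.55-fold difference. Its descendant pools ran from 7.55 to 7.93, so that the F0 SED pool lay within them and the F0 EX pool above.

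Hspd1 gave a different answer by probe set. The probe set with the highest mean had 9.35 in F0 EX and 8.43 in F0 SED, a 1.89-fold difference, and the F0 SED pool was the lowest of all arrays. The other probe set had 8.59 in F0 EX and 8.84 in F0 SED, a difference of -0.25, and the mean of both probe sets differed by 0.33. Around the identifier of the chosen probe set, the 10 nearest probe sets with a gene named genes of chromosome 11. Around the other one, 9 of 10 named genes of chromosome 1, where Hspd1 lies. Hspe1, the partner of Hspd1 in the mitochondrial chamber, had 8.47 in F0 EX and 7.78 in F0 SED. Hspe1 and the chosen Hspd1 probe set were both lowest in F0 SED and next lowest in F1 EX pool 1 (8.00 and 8.53), the arrays that stood apart. Whether the chosen probe set measures Hspd1 or a copy of its sequence elsewhere was not tested. The chosen probe sets of Hspb1 and Hsp90aa1 likewise had neighbours on other chromosomes (13 and 11) than their genes (5 and 12), but there the probe set with neighbours on the chromosome of the gene gave close values, with F0 differences of -0.02 and 0.83.

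Small heat shock proteins did not move as 1 group between the F0 pools. Cryab, the alpha-B crystallin that protects desmin and titin, had 9.15 in F0 EX and 8.70 in F0 SED. Hspb8, which acts with Bag3 in clearing damaged filament proteins, had 10.54 in F0 EX and 10.30 in F0 SED. Hspb7, a small heat shock protein of heart and skeletal muscle, ran the other way, with 8.18 in F0 EX and 8.78 in F0 SED, a 1.52-fold lower signal in F0 EX. Hspb1 had 8.15 in F0 EX and 8.13 in F0 SED, and Hspb6, a small heat shock protein abundant in muscle, had 11.66 and 11.70. Dnajb1, the J-domain protein that hands clients to Hsp70, had 4.12 in F0 EX and 4.10 in F0 SED. The probe set shared by Hspa1a and Hspa1b, the heat-inducible Hsp70 genes, had 7.02 in F0 EX and 6.86 in F0 SED. Both lay above all 8 descendant pools (6.42 to 6.82), a pattern seen in 5.79% of kept genes. The probe set that names Hspa1a alone did not show it. It had 4.47 in F0 EX and 4.34 in F0 SED, within its descendant pools (4.04 to 4.87).

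Scaling moved these values. The median difference of all kept genes was 0.08 as deposited, 0.01 after quantile normalization, 0.22 with arrays centred on the median of all probe sets and -0.04 with arrays centred on the median of kept genes. The share of higher genes among those past 0.5 in either direction was 74.0% as deposited, 57.9% after quantile normalization, and 90.6% and 50.7% with each centring. Hsp90aa1, Hsph1 and Hspd1 were then 0.59, 0.41 and 0.69 higher in F0 EX after quantile normalization, and Hspb7 differed by -0.83. By a size of 0.5, 2 members were higher and 1 was lower in that setting. Of the 11963 kept genes 10.7% (1279) were higher by as much after quantile normalization, and 930 were lower. Hspb8 (0.24 as deposited and -0.01 after quantile normalization), Hspb1, Hspb6 and Dnajb1 changed sign between scalings, and no direction is given for them. Slow fibre markers (6 of 6 kept), whose fibres are rich in small heat shock proteins, were all higher in F0 EX. Their mean deviation was 0.19 in the exercised and -0.33 in the sedentary F0 pool. Fast fibre markers (4 of 4 kept) were all higher in F0 EX too, with mean deviations of 0.11 and -0.26. The part of both lists in the members' differences was not tested, nor was that of the keratinocyte markers.

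The wider chaperone system was compared in the same F0 pools. Of 84 kept genes in 8 lists (90 listed), 22 were higher in F0 EX by 0.5 or more, 26.2%, and 1, the J-domain gene Dnajb12, was lower (-0.86). Their median was 0.09, close to the 0.08 of all kept genes. Among all 11963 kept genes 15.3% were higher by 0.5 and 5.38% lower. With the stricter filter, among the 7975 genes above the 60th percentile of signal, 20.2% were higher by 0.5. Chaperonins had the highest median of the lists at 0.69, with 5 of 9 members higher, led by Cct6a (1.15) and Cct8 (1.06), subunits of the cytosolic chamber that folds actin and tubulin. The mean deviation of this list was 0.17 in the F0 EX array, -0.39 in the F0 SED array, -0.31 in F1 EX pool 1 and -0.01 to 0.22 in the other descendants, so that F0 EX lay among them.

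Of the 22 genes higher by 0.5, 18 had F0 SED and F1 EX pool 1, the arrays that stood apart, as the lowest of all 10. In 14 of the 22 the F0 EX pool did not exceed the highest descendant pool. Choosing genes by F0 EX minus F0 SED itself favours a low F0 SED. These counts were not made for the other kept genes higher by 0.5, so whether they are particular to chaperones is not known. Chordc1 had 7.24 in F0 EX, against 6.01 in F0 SED, with 5.96 in F1 EX pool 1 and 6.67 to 7.32 in the other descendants. The part of these arrays in the differences was not tested.

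Each of the Hsp70, Hsp90 and J-domain lists had 5 genes higher by 0.5 in F0 EX. In the Hsp70 and Hsp110 family (13 kept) the largest differences were those of Hspa4 (0.96), an Hsp110 protein, and Hspa5 (0.90), the Hsp70 of the endoplasmic reticulum. Among Hsp90 co-chaperones (18 kept) they were Chordc1 (1.23) and Ptges3 (1.08), and among J-domain proteins (14 kept) Dnajb9 (1.07) and Dnaja2 (1.01). The other 4 lists held few such genes. Heat shock factors and BAG proteins had a median of -0.13, with Hsf2 at 0.72 and Bag4 at -0.47, and the other small heat shock proteins had 0 of 4 past 0.5 and a median of -0.07. Partners of chaperone-assisted autophagy had 0 of 6 past 0.5, and endoplasmic reticulum folding genes had 1 of 11, Pdia3 at 0.60.

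**Figure D2:**
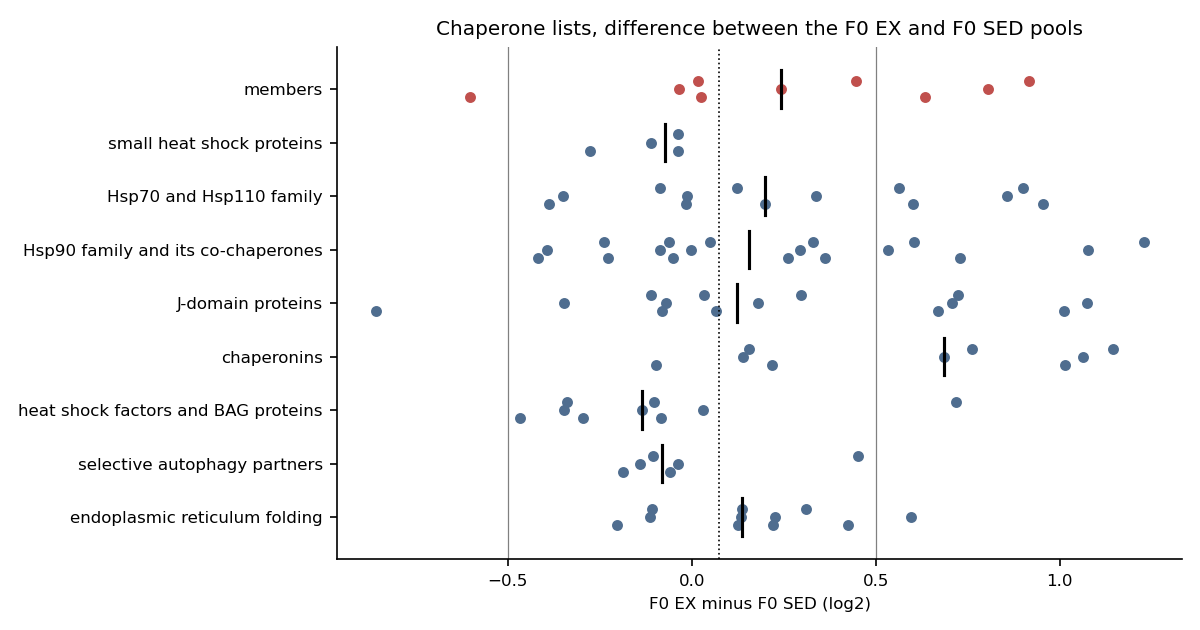
Difference in log2 probe set signal of the F0 EX minus the F0 SED pool (horizontal axis, 1 pool each) for the members (red) and the kept genes of 8 chaperone lists (blue), 1 point a gene. Black bars are list medians, the dotted line is the median of all kept genes (0.08) and grey lines mark 0.5 either side of 0. Chaperonins have a median of 0.69, and points reach 1.23 for Chordc1.

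F0 animals, 28 weeks old, were then set against their 8-week-old descendants, where age and generation cannot be told apart. The small heat shock proteins Hspb7 and Hspb8 had both F0 pools above all 8 descendant pools, and no member passed the test. Hspb7 had 8.18 and 8.78 in the F0 EX and F0 SED pools, against 8.03 and 7.55 in F1 EX, 7.74 and 7.88 in F1 SED, 8.10 and 7.97 in F2 EX, and 7.82 and 7.86 in F2 SED. The F0 EX pool exceeded the highest descendant pool by little, and the F0 SED pool by far more. The limma difference was 0.61 (SE 0.163, a 1.53-fold difference), with an adjusted p of 0.0800 over 11963 genes. It was 0.27 without the F0 SED array. It was 0.95 without the F0 EX array, where F0 is the 1 array that stands apart and is assumed to vary like the other groups. Without F1 EX pool 1 the difference was 0.66.

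Hspb8 had 10.54 and 10.30 in the F0 EX and F0 SED pools, against 9.87 and 10.06 in F1 EX, 10.09 and 10.09 in F1 SED, 10.18 and 10.19 in F2 EX, and 10.10 and 10.20 in F2 SED. The limma difference was 0.33 (SE 0.111, adjusted p = 0.159). It was 0.43 after quantile normalization, where it passed (limma adjusted p = 0.0350), and 0.18 without the F0 EX array. Hsph1 had a difference of 0.39 (SE 0.147, limma adjusted p = 0.202), which was 0.09 without the F0 EX array and 0.69 without the F0 SED array. With both F0 pools above all descendants, 2 of 9 members stood beside 5.79% of kept genes. In the limma test 0 of 9 members passed, against 2.33% of kept genes called in either direction (0.794% higher and 1.54% lower), and 3 of 9 had an unadjusted p under 0.05, against 17.6%.

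The other 6 members had limma differences between -0.21 (Hspd1) and 0.10 (Hspb1), with 95% intervals reaching from -0.71 to 0.47. The other Hspd1 probe set gave 0.30 (SE 0.194, 95% interval -0.12 to 0.72), of opposite sign. For Hspb1, Hspb6 and Dnajb1 both F0 pools lay within the range of the descendant pools. For Cryab the F0 SED pool did, and F0 EX lay above that range. For Hsp90aa1 and the chosen Hspd1 probe set, F0 EX lay above all descendant pools and F0 SED below all of them. Of the 84 kept genes of the wider lists 0 passed and 9 had an unadjusted p under 0.05. Some passed under other settings, among them Pdia3 under 6. The smallest p among them belonged to Pdia3, a disulfide isomerase of the endoplasmic reticulum, at -0.48 (limma adjusted p = 0.0627, and 0.0478 after quantile normalization). Hspa1l, an Hsp70 gene next to Hspa1a and Hspa1b, had 0.51 (limma adjusted p = 0.0789). Its signal was 6.99 and 7.07 in the F0 EX and F0 SED pools, against 6.30 to 6.96 in descendants. Matrix and vessel markers moved in this comparison too, with 3 of 5 fibroblast and tendon markers and 2 of 4 endothelial markers called lower in F0, and 2 of 3 keratinocyte markers called higher. Their part in the members' values was not tested, and in pooled tissue fewer cells of a type and less RNA per cell cannot be told apart.

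**Figure D3:**
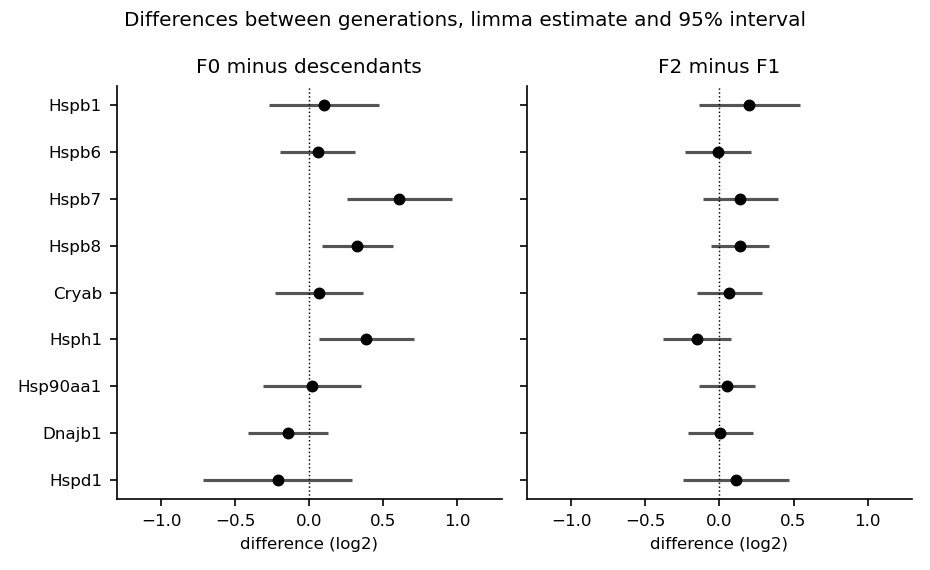
Limma estimates (points) with 95% intervals (lines) for 9 members, of F0 (2 pools) minus descendants (8 pools) on the left and of F2 minus F1 (4 pools each) on the right, in log2 units on the horizontal axes. Hspb7 lies at 0.61, Hsph1 at 0.39 and Hspb8 at 0.33 on the left, and all estimates on the right lie between -0.15 and 0.20.

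In the sedentary descendants, the comparison of EX with SED ancestry asked whether exercise of forebears left a trace in chaperone expression. Dnajb1 alone among the members separated the ancestries, and its test did not pass. It had 4.38 and 4.53 in F1 EX, 4.09 and 3.998 in F1 SED, 4.32 and 4.48 in F2 EX, and 4.27 and 3.95 in F2 SED. All 4 EX pools lay above all 4 SED pools, the nearest pair being F2 EX pool 1 and F2 SED pool 1. The mean was 4.43 ± 0.10 in EX and 4.08 ± 0.14 in SED (SD, n = 4 each), a 1.28-fold difference. Limma over both generations gave 0.35 (SE 0.0996, 95% interval 0.13 to 0.57), an unadjusted p of 0.00499 that ranked 33 among 11963 genes, and an adjusted p of 0.888. Of all kept genes 1.75% had the 4 EX pools above the 4 SED pools. Both F0 pools (4.12 in F0 EX and 4.10 in F0 SED) lay nearer to the SED descendants. The signal of Dnajb1 is low, at the percentile 53.8 of all genes, and without detection calls it is not known how far it stands above background.

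**Figure D4:**
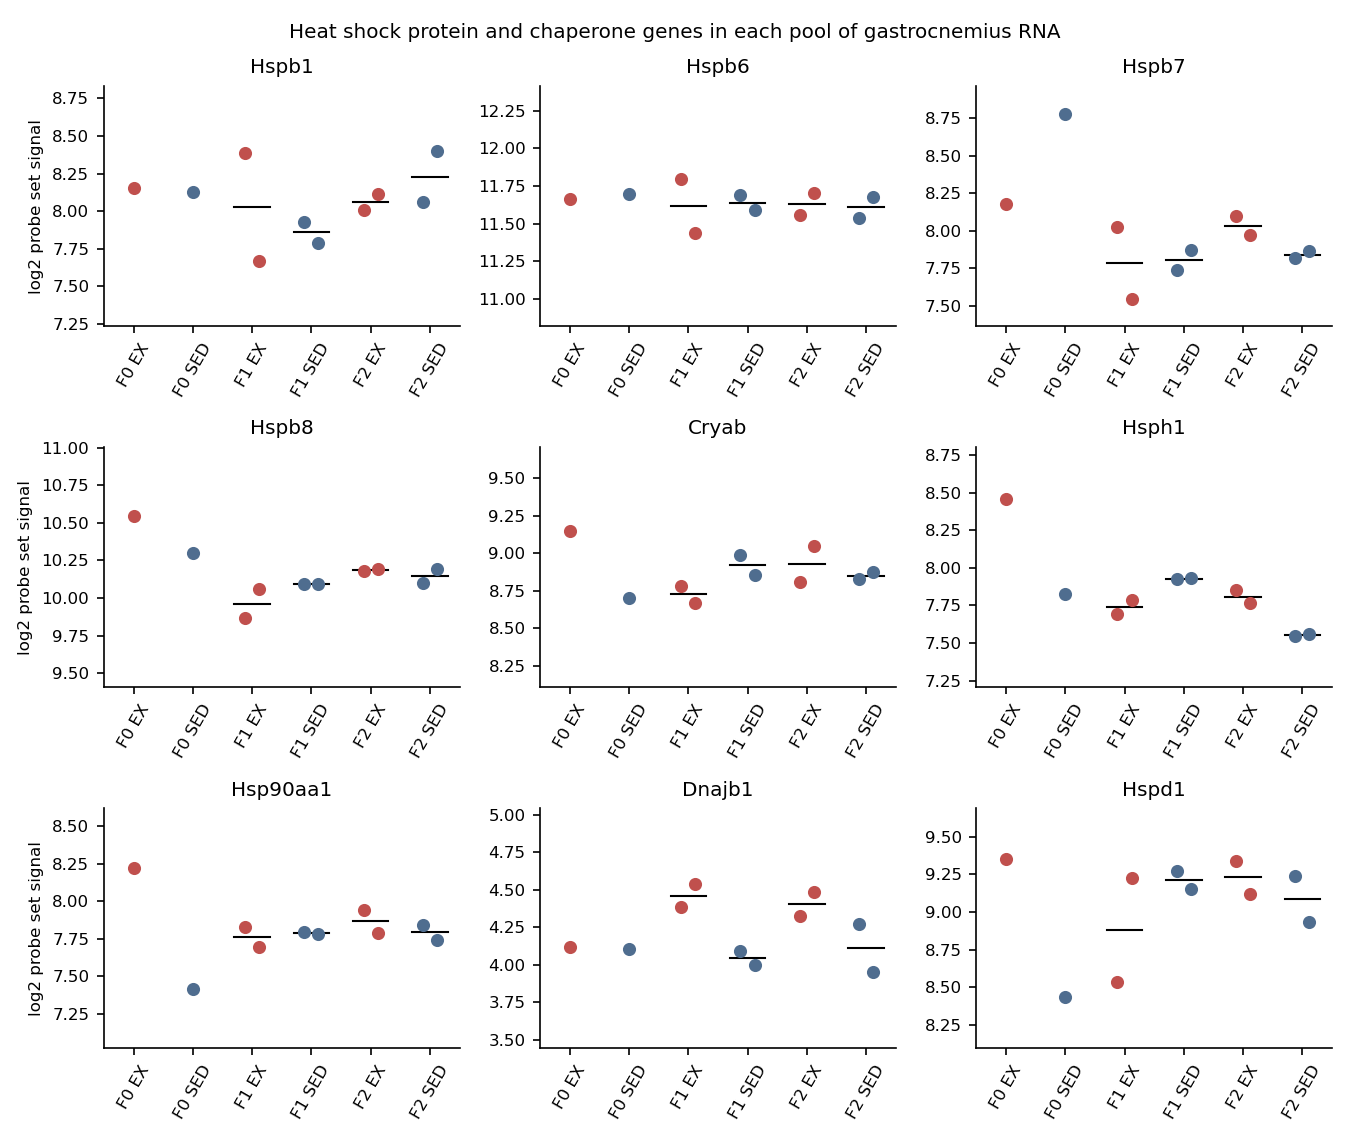
Log2 probe set signal (vertical axis, each panel spanning 1.6 units) of 9 members in every pool, by generation and ancestry (EX red, SED blue). Each point is 1 pool of 5 animals and black lines are means of 2 pools. Dnajb1 is above 4.3 in all EX descendants and below 4.3 in all SED descendants, and the F0 EX pool is the highest of all for Hsph1 (8.46) and Hsp90aa1 (8.22).

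The other members had smaller estimates over both generations. They ran from -0.09 (Hspd1) to 0.09 (Hspb7), and the widest 95% interval reached from -0.45 to 0.26. The other Hspd1 probe set gave 0.16 (SE 0.170, 95% interval -0.22 to 0.54). For Hsp90aa1 the interval was -0.16 to 0.21, for Hspb8 -0.24 to 0.15 and for Cryab -0.28 to 0.16. Of 9 members 0 passed, as did 0% of all kept genes, and 1 of 9 had an unadjusted p under 0.05, against 4.99%. Among the wider lists 0 of 84 passed and 5 had an unadjusted p under 0.05. Hspa1a, whose own probe set is distinct from the shared one, had -0.34 (SE 0.111), and the J-domain protein Dnajb4 had 0.28 (SE 0.110). Ahsa1, which stimulates the ATPase of Hsp90, had 0.22 (SE 0.0929), Hspa1l 0.25 (SE 0.112) and Sdf2l1, a folding factor of the endoplasmic reticulum, -0.38 (SE 0.154). The limma adjusted p was 0.888 for each. Slow fibre markers had estimates above 0 in 6 of 6 genes, with a median of 0.17, of which 2 had an unadjusted p under 0.05. Their part in the members' values was not tested.

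Within F1, Dnajb1 had a difference of 0.41 (SE 0.145, limma adjusted p = 0.804), and both EX pools lay above both SED pools, as in 13% of kept genes. Hspb8, Cryab and Hsph1 had both F1 EX pools below both F1 SED pools, as in 16.6% of kept genes, with differences of -0.13, -0.19 and -0.19. Hspd1 had -0.33 (SE 0.215), with 8.53 and 9.23 in F1 EX, against 9.27 and 9.16 in F1 SED. The difference was 0.0148 without F1 EX pool 1 and 0.00924 with the other probe set. Without F1 EX pool 2 it was -0.68 (limma adjusted p = 0.0449), where F1 EX is the 1 array that stands apart, is assumed to vary like the other groups, and 449 genes are called higher and 597 lower. The remaining 4 members had differences between -0.02 and 0.17, all smaller than their SE. Of 9 members 0 passed (limma, 0% of kept genes called), and 1 had an unadjusted p under 0.05, against 4.88%. Adipocyte markers (4 of 5 kept) had mean deviations of -0.65 and -0.39 in F1 EX, against 0.39 and 0.14 in F1 SED, and their part in these values was not tested.

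Within F2, Hsph1, Dnajb1 and Hspb7 had both EX pools above both SED pools, as in 25.8% of kept genes. Hsph1 had 7.85 and 7.77 in F2 EX, against 7.55 and 7.56 in F2 SED, a difference of 0.26 (SE 0.117, limma adjusted p = 1.00). Dnajb1 had 0.29 (SE 0.145) and Hspb7 0.19 (SE 0.163). The other 6 differences ran from -0.17 (Hspb1) to 0.14 (Hspd1), all smaller than their SE. The other Hspd1 probe set gave 0.31 (SE 0.243) in F2. Of 9 members 0 passed (limma, 0% of kept genes called), and 0 had an unadjusted p under 0.05, against 4.45%. Estimates were above 0 for 8 of 9 members, where 60.7% of kept genes had such an estimate. In the wider lists 65 of 84 estimates were above 0, all 9 chaperonins among them, and 0 of 84 passed. Slow fibre markers had mean deviations of 0.21 and 0.26 in F2 EX, against -0.18 and 0.05 in F2 SED. Fast fibre markers had 0.09 and 0.11 in F2 EX, against 0.02 and 0.02 in F2 SED. The part of both lists in these values was not tested.

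Hsph1 ran opposite ways in the generations, and the difference of the effects was tested. It had 7.69 and 7.79 in F1 EX and 7.92 and 7.93 in F1 SED, so that EX lay below SED in F1 and above it in F2. The F2 effect minus the F1 effect was 0.44 (SE 0.165, 95% interval 0.07 to 0.81), with an unadjusted p of 0.0238 and a limma adjusted p of 0.919. For the other members the difference of effects lay between -0.34 (Hspb1) and 0.48 (Hspd1), with intervals that held 0. Of 9 members 0 passed (limma, 0% of kept genes called), and 1 had an unadjusted p under 0.05, against 4.34%.

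**Figure D5:**
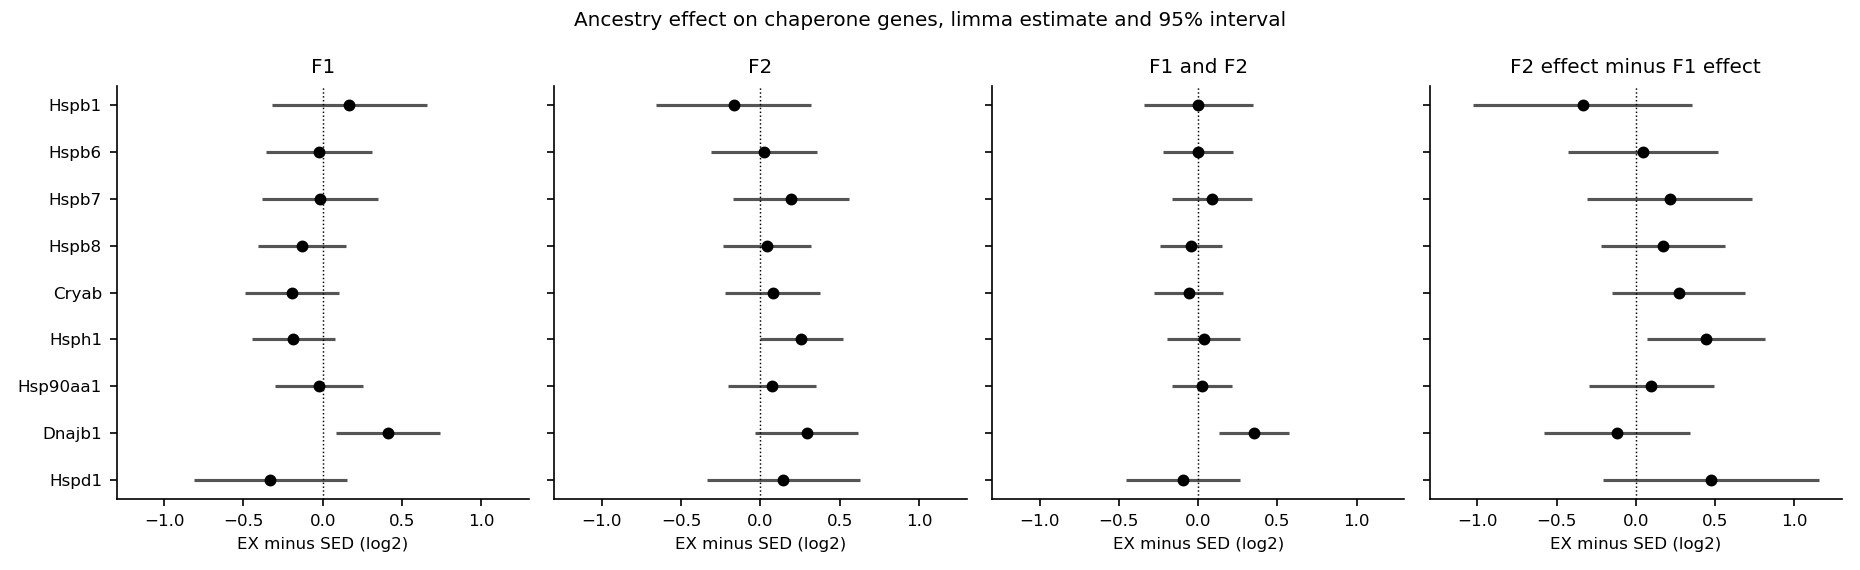
Limma estimates (points) with 95% intervals (lines) of the EX minus SED difference in log2 units (horizontal axes) for 9 members, in F1 (2 pools against 2), in F2 (2 against 2), over both (4 against 4), and for the F2 effect minus the F1 effect. Dnajb1 lies at 0.41, 0.29 and 0.35 in the first 3 panels, and Hsph1 at 0.44 in the last.

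The members lay close together when F2 was set against F1, all of them 8 weeks old. Hspb8 had all 4 F2 pools above all 4 F1 pools, as in 1.77% of kept genes. The nearest pair nearly touched, with 10.097 in F2 SED pool 1 and 10.094 in F1 SED pool 1. The lowest F1 value, 9.87, was that of F1 EX pool 1, an array that stood apart. The mean of Hspb8 was 10.17 ± 0.05 in the F2 pools and 10.03 ± 0.11 in the F1 pools (SD, n = 4 each). Its limma difference was 0.14 (SE 0.0872, adjusted p = 0.911). Hsph1 had -0.15 (SE 0.104), Hspb7 0.14 (SE 0.115) and Hspb1 0.20 (SE 0.155), each with overlapping pools. The remaining 5 differences ran from -0.01 to 0.11, all smaller than their SE. Of 9 members 0 passed (limma, 0% of kept genes called), 0 had an unadjusted p under 0.05, against 4.25%, and in the wider lists 0 of 84 passed.

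Genes whose pattern over the 10 arrays was most like the mean of the 9 members were found by Pearson r, as a description of these arrays. They were Idh2 (0.96), the mitochondrial isocitrate dehydrogenase, Zadh2 (0.93), Poglut1 (0.93), a glucosyltransferase, Acss2 (0.91), an acetyl-CoA synthetase, and Abcb1b (0.91), a drug efflux pump. Each had its highest signal in F0 EX, where the mean deviation of the members was also highest, at 0.24, against -0.11 to 0.06 in the other arrays.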

How the data were processed

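The values are log2 signals of 35557 probe sets on 10 arrays, as deposited by the authors. The log2 scale was read from their range, 0.97 to 14.2. Affymetrix Expression Console is the tool in the submitters' processing notes. The sources used here give no version, normalization, genome build or batch. Per the labels' protocols, RNA was diluted to 98 ng/µl and pooled from 5 animals for each array. The design text names 10 males of each ancestry, but the labels do not state that pools of a group hold separate animals, so p-values measure the spread between pools, which may be technical.

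Gene symbols came from GEO's annotation of the platform (1 symbol for 21789, several for 1621, none for 12147). Entrez identifiers of 21698 matched RefSeq and 0 symbols changed. A gene was kept where its mean over arrays reached the 40th percentile (3.23). Tests used lmFit and eBayes of limma 3.58.1 (R 4.3.3) with Benjamini-Hochberg adjustment over 11963 genes and a threshold of 0.05. Descendant groups were fitted on 8 arrays, and F0 against descendants on 10, with ancestry in the model. The fit on 10 arrays assumes 1 common EX minus SED difference, though in F0 it is the animals' own exercise. A mismatch enters the SE, as for Hspb7 (-0.60 in F0 and 0.09 over descendants). A direction is named for tested estimates at least as large as their SE. Members, lists and tests were chosen with earlier results of these data known. All members are named, and genes of the wider lists come from the 2 with the smallest p (in F0, the largest difference) in each list. Hspe1, the F0 value of Dnajb12 and marker genes were named after their values were seen. The 5 most alike genes are those of highest Pearson r with the members' mean profile.

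On simulated data with 11963 genes, a change of 0.5 was recovered for 65.7% of genes for ancestry over both generations, 14.8% in F1, 15.5% in F2, 0% for the difference of effects, 55.4% for F2 against F1 and 44.4% for F0 against descendants. Each simulation changed many genes at once, by 0.5, 1 or 2. Its noise was normal and independent, with the spread of the descendants on every array, and no array stood apart. A lone change of 0.5 in the real data may therefore be recovered less often. The number of arrays limits the precision. Alternatives were quantile normalization, centring, other filters, averaged probe sets, limma with trend and robust settings, array weights, a pool block and leaving out each pool.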

Additional observations from a re-analysis of the deposited data

Results flagged for a closer look

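Among 45 sets of 4 or 8 descendant pools (9 members, pools taken by ancestry, by generation or all together), 4 held a pool far from the rest, where chance flags about 1 in 20. Hspb8 had 9.87 in F1 EX pool 1, against 10.06 in the next lowest pool, which stood out both within F1 and among all 8 descendants. It had 10.20 in F2 SED pool 2, with the other SED descendants between 10.09 and 10.10. Hspd1 had 8.53 in F1 EX pool 1, against 9.16 in the next lowest F1 pool. F1 EX pool 1 is an array that stood apart across all genes.

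Hsph1 had F1 EX below F1 SED and F2 EX above F2 SED in every pool. The difference of the effects was 0.442, and it did not pass when tested (limma adjusted p = 0.919). Outside the tested genes, the probe set shared by Hspa1a and Hspa1b had 7.02 in F0 EX. This was above all 5 SED pools of the 3 generations, of which F0 SED was the highest at 6.86. F0 SED too lay above all descendant pools, and both F0 pools did so in 5.79% of kept genes. For this probe set EX minus SED was -0.20 in F1 and -0.10 in F2. By the probe set that names Hspa1a alone, F0 EX (4.47) and F0 SED (4.34) both lay within the descendant pools.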

How the results depend on the processing

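For 52 named estimates with a test, 1040 values were recomputed. Of these 1016 kept their direction and side of the threshold, 15 newly passed and 9 changed sign. For 25 named F0 differences, which have no test, 8 of 173 recomputed values changed sign. These were Hspd1 (-0.25) and Hspb1 (-0.02) with the probe set of the own locus, Hspb1 (-0.23) and Hspb8 (-0.01) after quantile normalization, Hspb6 (0.11) and Hspb3 (0.04) with centring on all probe sets, and Hspb1 (-0.09) and Dnajb1 (-0.10) with centring on kept genes. The tested estimates that changed sign were Hspd1 in F1 (0.0148 without F1 EX pool 1, alone or with F0 SED, and 0.00924 with the probe set of its own locus; lowest -0.68 over left-out pools), the difference of Hspb1 effects (0.0242 without F1 EX pool 1, alone or with F0 SED; lowest -0.69), and, in F0 against descendants, Dnajb1 (range -0.31 to 0.0238 over left-out pools), Dnajb12 (-0.0216 to 0.91) and Cct6a (-0.99 to 0.16, and 0.0734 without F0 SED and F1 EX pool 1). Against descendants, Hspb7 passed without F0 EX (0.95, limma adjusted p = 0.0133) and without F1 EX pool 1 (0.66, 0.0320), and Hspd1 passed in F1 without F1 EX pool 2 (-0.68, 0.0449). Pdia3 passed after quantile normalization, with the 60th percentile filter, with trend and robust settings, with centring on kept genes and without F0 EX or F1 EX pool 1 (adjusted p 0.0144 to 0.0485). Hspa1l passed without F0 EX or F1 EX pool 1 (0.0381 and 0.0127), and Bag5 (0.0244), Dnajb12 (0.00776) and Cct6a (0.00761) without F0 EX. A group left with 1 sample is assumed to vary like the others, and in such fits the calls over all genes also moved, as given below. Members called higher in F0 against descendants numbered 1 with quantile normalization (Hspb8) and 0 to 1 over left-out pools, and members called lower in F1 numbered 0 to 1. Members lower by 0.5 in F0 EX numbered 0 with centring on all probe sets. The dependence on probe set and centring was found after seeing the data, where it concerns the gene's own locus, kept genes or the pair of arrays left out together.

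Counts over all genes moved more. Against descendants 13 were higher and 25 lower with array weights, 4 and 10 with F1 alone, 35 to 316 and 51 to 915 over left-out pools, and 90 lower without F0 SED and F1 EX pool 1. In F1, left-out pools gave 0 to 449 higher and 0 to 597 lower, and for the difference of effects 0 to 123 and 0 to 20. Between F2 and F1, 2 were higher under the trend and robust setting and 1 under array weights. In F0, 2932 were higher and 305 lower with centring on all probe sets, 1197 and 1162 with centring on kept genes, 1578 lower without a filter and 264 lower with the 60th percentile. The causes were not tested. Over all kept genes, pools of the same number did not deviate together (r of deviations from -0.11 to 0.06 over 6 pairs of groups). A pairing that acts on some genes only, or with differing sign, cannot be seen in such an r. With the pool number as a replicate block 0 members passed, and Dnajb1 had 0.35 over both generations (limma adjusted p = 0.891).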
